A study of Mus musculus with 8 samples.

Results

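The EGF family of ligands and receptors was examined in wound skin of mice, where it was represented by 10 genes of the 18540 in the deposited count table. The members were taken by gene symbol and comprised 7 ligand genes (Egf, Tgfa, Hbegf, Areg, Ereg, Epgn and Btc) and 3 receptor genes (Egfr, Erbb2 and Erbb3), and all 10 passed the low-count filter that left 15147 genes. RNA sequencing covered 4 control samples and 4 samples of the Z1C2Z group. Samples carry the numbers of their labels, 1, 2, 3 and 5 in the control group and 1, 2, 4 and 5 in the Z1C2Z group, and values for single samples follow that order. Z1C2Z is the ZnO2/CeO2@ZIF-8 composite (ZCZ) that holds more CeO2 per ZnO2, a metal organic framework particle that was injected around full-thickness wounds, and tissue was taken after 15 days of treatment. The labels call the treated samples shiyan, and the name Z1C2Z was taken from the study's plots of these sequencing data, where samples of that name carry the same numbers. Controls received PBS in the study's wound experiments. The study wounded both C57BL and diabetic db/db mice, each mouse carrying a pair of wounds, and the sources used here do not say which strain, at which age, gave the sequenced skin or whether samples shared a mouse. The p-values therefore measure the spread between these samples. The samples held between 28856790 and 38974888 counts each.

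EGF receptor ligands are made as membrane-anchored precursors, and proteases of the ADAM family cut them from the cell surface so that they can bind EGFR on the same or neighbouring cells. In skin, EGFR signaling drives keratinocytes to divide and to move across a wound bed, and it restrains their terminal differentiation. Amphiregulin (Areg), epiregulin (Ereg), epigen (Epgn), heparin-binding EGF (Hbegf), transforming growth factor alpha (Tgfa) and betacellulin (Btc) are produced by keratinocytes themselves, whereas Egf is made mainly in other organs. ERBB2 has no known ligand and pairs with the other receptors, and ERBB3 binds neuregulins but has little kinase activity of its own.

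The label of the tissue was compared with marker genes. Basal keratinocyte genes (Krt5, Krt14, Krt15, Trp63, Itga6, Itgb4 and Col17a1) summed to between 4574 and 7266 CPM (counts scaled to a common library size after TMM normalization) in the control group and between 4940 and 6203 CPM in the Z1C2Z group, and 0 of the 7 passed the threshold of an adjusted p under 0.05 in edgeR (1 had an unadjusted p under 0.05, and DESeq2 called 1). Of 7 suprabasal and 4 wound-activated keratinocyte markers, 0 passed it in edgeR as well (1 and 0 had an unadjusted p under 0.05, and DESeq2 called 1 and 0). The log2 fold change was above 0 for all 7 suprabasal markers (median 0.45). It was under 0 for 3 of the 4 wound-activated markers (median -0.67). Hair shaft and inner root sheath genes rose in 8 of 9 cases in edgeR, where 4.28% of all genes were called higher, and DESeq2 called 9. They summed to between 572 and 3570 CPM in the control group and between 4348 and 15637 CPM in the Z1C2Z group, without overlap. Skeletal muscle genes fell in 2 of 6 cases, with sums of 2921 to 5232 CPM against 2411 to 2704 CPM, again without overlap, and fibroblast genes fell in 2 of 5 cases, where edgeR called 3.85% of all genes lower. DESeq2 called 4 muscle and 5 fibroblast genes lower, and the same numbers had an unadjusted p under 0.05 in edgeR. Of the tested markers of sebocytes (6), endothelial cells (4), macrophages (5), neutrophils (5), mast cells (5), T cells (4) and adipocytes (5), 0 passed the threshold in edgeR. In the same order 1, 2, 2, 3, 0, 1 and 3 had an unadjusted p under 0.05, and DESeq2 called 0, 2, 0, 2, 0, 1 and 2. Of all genes tested, 28% had an unadjusted p under 0.05 in edgeR, and DESeq2 called 2745 of 15147. The median log2 fold changes were, in that order of cell types, 0.205, -0.751, -0.374, -1.188, -0.235, 0.331 and -0.466. Neutrophil markers had a median log2 fold change of -1.19, with sums of 571 to 1497 CPM in the control group and 167 to 656 CPM in the Z1C2Z group, and Ly6g among them had at most 6 counts in any sample and 0 in at least 1. In bulk tissue, fewer cells of a type and less RNA per cell cannot be told apart, and the part of these cell types in the results that follow was not tested.

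Across the family, 2 ligand genes fell and 1 receptor gene rose in the Z1C2Z group. Epgn and Hbegf were lower and Erbb2 was higher at an adjusted p under 0.05 (edgeR's quasi-likelihood test, Benjamini-Hochberg adjustment over all 15147 genes), which is 3 of 10 members, where 8.13% of all genes tested were called. In the lower direction 2 of 10 members were called beside 3.85% of all genes, and in the higher direction 1 of 10 beside 4.28%. Epgn and Hbegf also passed an absolute log2 fold change of 1, as 1.25% of all genes did in the lower direction, while Erbb2 did not, and 2.15% of all genes did in the higher direction. Epgn, Hbegf and Erbb2 were also the members whose groups did not overlap, 2 of 10 lower beside 8.82% of all genes, 1 of 10 higher beside 8.45%, and 3 of 10 in either direction beside 17.3%. An unadjusted p under 0.05 was reached by 7 of 10 members and by 28% of all genes. Log2 fold changes were negative for 4 and positive for 3 of the 7 ligand genes, and their range from -2.31 to 0.30 was wider than the range of -0.18 to 0.40 among the 3 receptor genes. The median log2 fold change of the 10 members was -0.08, beside 0.01 over all genes tested.

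**Figure D1:**
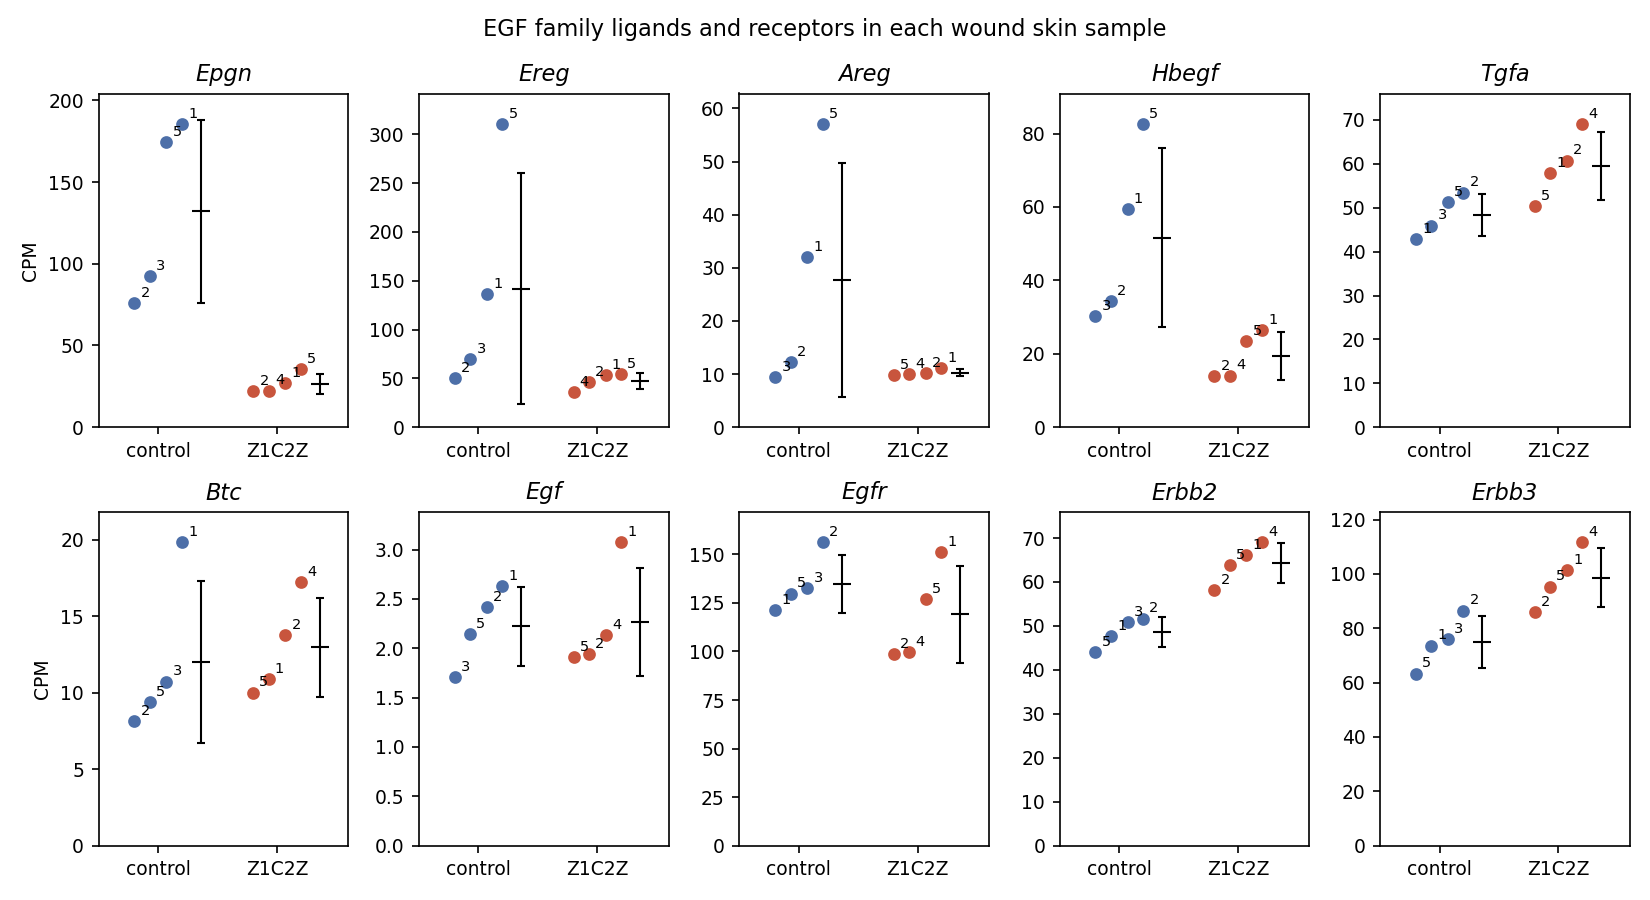
CPM of each EGF family gene (vertical axes, linear and starting at 0) in the 4 control samples (blue) and the 4 Z1C2Z samples (red), with the sample number beside each point and the mean with its SD as a black bar. For Epgn, Hbegf and Erbb2 the groups are separate, and for Areg and Ereg the high control values are those of control-1 and control-5.

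Epgn (Entrez gene 71920), which encodes epigen, a ligand of EGFR, showed the largest change of the family. It had 186, 75.9, 92.2 and 174 CPM in the control samples. The treated samples had 26.9, 22.2, 22.4 and 35.3 CPM. The lowest control sample was thus far above the highest treated sample, and the counts behind these values, 855 to 6185 per sample, leave little counting error. The mean fell from 132 ± 55.9 to 26.7 ± 6.14 CPM (mean ± SD of 4 samples each), that is a ratio of control to treated of 4.95, with a log2 fold change of -2.31 (standard error, SE, 0.31, 95% interval -3.01 to -1.61, adjusted p = 0.0280 in edgeR). By unadjusted p it stood at place 16 of the 15147 genes. Permuting the group labels in all 70 ways (exact permutation test, two-sided) gave p = 0.0286, the smallest that 4 samples against 4 allow.

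The change in Epgn was under 0 in all 19 alternative fits, between -2.50 and -1.05, and passed the threshold in 11. The edgeR adjusted p rose to 0.0650 without control-5, to 0.0661 without Z1C2Z-1, to 0.0888 without Z1C2Z-2 and to 0.0876 without Z1C2Z-4, in fits where 0 of all genes tested were called although 3223, 4208, 3137 and 3100 had an unadjusted p under 0.05.

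Hbegf (Entrez gene 15200), which encodes the heparin-binding ligand, followed with a smaller fall. Its values were 59.4, 34.3, 30.2 and 82.6 CPM in the control samples and 26.5, 13.9, 14.0 and 23.5 CPM in the treated samples. The groups were separate, but control-3 lay close to Z1C2Z-1. The mean fell from 51.6 ± 24.4 to 19.5 ± 6.51 CPM (mean ± SD of 4 samples each), that is a log2 fold change of -1.41 (SE 0.35, 95% interval -2.20 to -0.61, adjusted p = 0.0449 in edgeR, exact two-sided permutation test p = 0.0286). The call lay near the threshold and was lost in 6 of the 8 fits that left out a sample, with adjusted p of 0.0618 without control-1, 0.0618 without control-2, 0.111 without control-5, 0.0698 without Z1C2Z-1, 0.130 without Z1C2Z-2 and 0.127 without Z1C2Z-4.

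Ereg and Areg, which encode epiregulin and amphiregulin, did not pass the adjusted threshold in spite of fold changes of similar size to that of Hbegf. Ereg (Entrez gene 13874) had 136, 50.4, 69.85 and 311 CPM in the control samples and between 35.9 and 54.1 CPM in the 4 Z1C2Z samples. Only control-2 lay within the range of the treated samples. Its log2 fold change was -1.58 (SE 0.50, 95% interval -2.72 to -0.45, adjusted p = 0.0810 in edgeR, exact two-sided permutation test p = 0.0857). Areg (Entrez gene 11839) had 32.0, 12.2, 9.45 and 57.1 CPM in the same control samples and 11.1, 10.2, 10.04 and 9.82 CPM in the treated samples. Here control-3 lay below all treated samples and control-2 just above them, while control-1 and control-5 were far above. The log2 fold change was -1.43 (SE 0.50, 95% interval -2.56 to -0.30, adjusted p = 0.104 in edgeR, exact two-sided permutation test p = 0.143), and without control-3 the edgeR adjusted p was 0.0473. Without control-5 the log2 fold changes were smaller, -0.84 for Ereg and -0.78 for Areg (adjusted p = 0.173 and 0.266 in edgeR).

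The spread of these genes within the control group was wide and that within the Z1C2Z group narrow. The SD of log2 CPM was 1.21 for Areg and 1.16 for Ereg among the control samples, against 0.078 and 0.27 among the Z1C2Z samples. Hbegf and Epgn had 0.68 and 0.65 against 0.49 and 0.31. For Areg, Ereg and Hbegf, control-5 was the highest and control-1 the second highest of the 8 samples, and for Epgn these 2 samples exchanged places. Control-1 and control-5 were also the 2 samples with the lowest sums of hair shaft and inner root sheath markers, at 612 and 572 CPM. Their neutrophil sums of 571 and 1310 CPM were the lowest and the second highest of the control group. By mean log2 CPM over the neutrophil markers, however, control-1 and control-5 were the lowest of that group, at 4.10 and 4.29 against 4.76 and 5.04. Leaving out both, a choice made after the values were seen, left log2 fold changes of -1.66 for Epgn, -0.73 for Hbegf, -0.35 for Ereg and -0.08 for Areg, with edgeR adjusted p of 0.0659, 0.178, 0.312 and 0.746 and 13 genes called in all.

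The remaining 3 ligand genes did not pass the threshold. Tgfa (Entrez gene 21802), whose product is a keratinocyte growth factor, had between 42.9 and 53.4 CPM in the control group and between 50.3 and 69.1 CPM in the treated samples, where only Z1C2Z-5 lay within the control range. For Tgfa the log2 fold change was 0.30 (SE 0.12, 95% interval 0.04 to 0.56, adjusted p = 0.134 in edgeR). Btc (Entrez gene 12223) had between 8.16 and 19.8 CPM and between 10.01 and 17.2 CPM, and its log2 fold change of 0.11 had a 95% interval of -0.54 to 0.77 (adjusted p = 0.827 in edgeR), which is wide on both sides of 0. Egf (Entrez gene 13645) was scarce, with 62 to 109 counts per sample, or 2.22 ± 0.397 CPM in the control group and 2.27 ± 0.547 CPM in the Z1C2Z group (SD, n = 4 each, adjusted p = 0.949 in edgeR). The signs of Btc and Egf turned in 4 of 19 alternatives each.

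**Figure D2:**
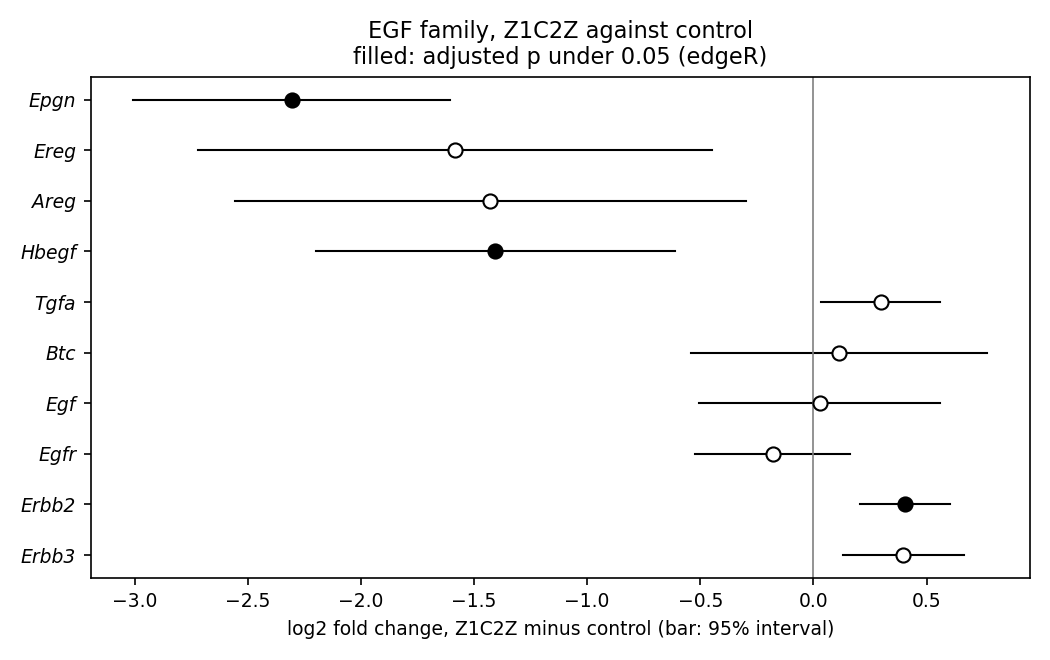
Log2 fold change of each EGF family gene (horizontal axis, Z1C2Z minus control) with its 95% interval from the edgeR fit, filled where the adjusted p was under 0.05. Epgn (-2.31), Hbegf (-1.41) and Erbb2 (0.40) are filled, and the intervals of Ereg and Areg are wide.

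Among the receptor genes, Erbb2 (Entrez gene 13866) rose by a small amount with little spread. It had 47.7, 51.6, 50.8 and 44.1 CPM in the control samples and 66.1, 58.2, 69.0 and 63.8 CPM in the treated samples. All treated samples lay above all control samples. The mean was 48.6 ± 3.43 against 64.3 ± 4.60 CPM (mean ± SD of 4 samples each), that is a ratio of 1.32, with a log2 fold change of 0.40 (SE 0.09, 95% interval 0.20 to 0.60, adjusted p = 0.0341 in edgeR, exact two-sided permutation test p = 0.0286). The direction held in all 19 alternative fits, from 0.30 to 0.45, but the adjusted p rose to 0.0615 without control-2, 0.0932 without control-5, 0.0716 without Z1C2Z-1, 0.0888 without Z1C2Z-2 and 0.105 without Z1C2Z-4.

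Erbb3 (Entrez gene 13867), which encodes the receptor that binds neuregulins together with ERBB2, had 73.6, 86.5, 76.1 and 63.3 CPM in the control samples and 101, 85.8, 112 and 95.3 CPM in the treated samples. The groups overlapped through control-2 and Z1C2Z-2. Its log2 fold change of 0.40 (SE 0.12, 95% interval 0.13 to 0.66) was of the same size as that of Erbb2 but had an edgeR adjusted p of 0.0701, and DESeq2 gave an adjusted p of 0.0250. Egfr (Entrez gene 13649), the receptor of all 7 ligands, had between 121 and 156 CPM in the control group and between 98.8 and 151 CPM in the treated samples. For Egfr the log2 fold change was -0.18 (SE 0.15, 95% interval -0.52 to 0.16, adjusted p = 0.465 in edgeR), an interval that does not reach the size of the falls in Epgn and Hbegf.

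To compare levels between genes, the CPM values were divided by the joint length of all exons of a gene in GENCODE's mouse annotation, since a longer transcript collects more reads. This length covers the exons of every annotated transcript and can exceed that of the transcripts present. The order of genes and the shares of ligands that follow depend on it. Per kilobase, Epgn had the highest mean level of the 10 genes in the control group, with 73.0 ± 30.9 CPM per kilobase (SD, n = 4), followed by Ereg (34.3 ± 28.7), Areg (22.8 ± 18.1), Erbb3 (12.4 ± 1.58), Egfr (11.9 ± 1.32), Hbegf (10.7 ± 5.04), Erbb2 (9.32 ± 0.659), Tgfa (7.46 ± 0.746), Btc (2.66 ± 1.174) and Egf (0.197 ± 0.0352). Neighbours from Epgn down to Erbb2 overlapped in their ranges, whereas Erbb2, Tgfa, Btc and Egf were separate from each other. In the Z1C2Z group Erbb3 came first with 16.4 ± 1.80 CPM per kilobase, and Epgn (14.8 ± 3.40), Erbb2 (12.3 ± 0.884), Ereg (11.5 ± 2.04), Egfr (10.5 ± 2.21), Tgfa (9.17 ± 1.20) and Areg (8.47 ± 0.469) followed with ranges that overlapped between neighbours. Hbegf (4.03 ± 1.35), Btc (2.87 ± 0.719) and Egf (0.201 ± 0.0485) were lowest, with a gap between Areg and Hbegf and another between Btc and Egf.

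The sum of the 7 ligand genes was between 81.6 and 246 CPM per kilobase in the control samples and between 46.9 and 55.7 CPM per kilobase in the Z1C2Z samples. Epgn made up between 39.2% and 55.7% of the ligand sum in the control group and between 25.95% and 35.0% in the Z1C2Z group. Tgfa made up between 3.21% and 10.1% in the control group and between 13.9% and 22.7% in the Z1C2Z group. These are shares of 1 sum, so that a lower share of Epgn raises the shares of the other ligands. The share of Areg, by contrast, overlapped between the groups, with 8.49% to 19.1% and 14.5% to 17.7%, as did that of Ereg, with 14.9% to 30.6% and 18.6% to 23.9%.

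**Figure D3:**
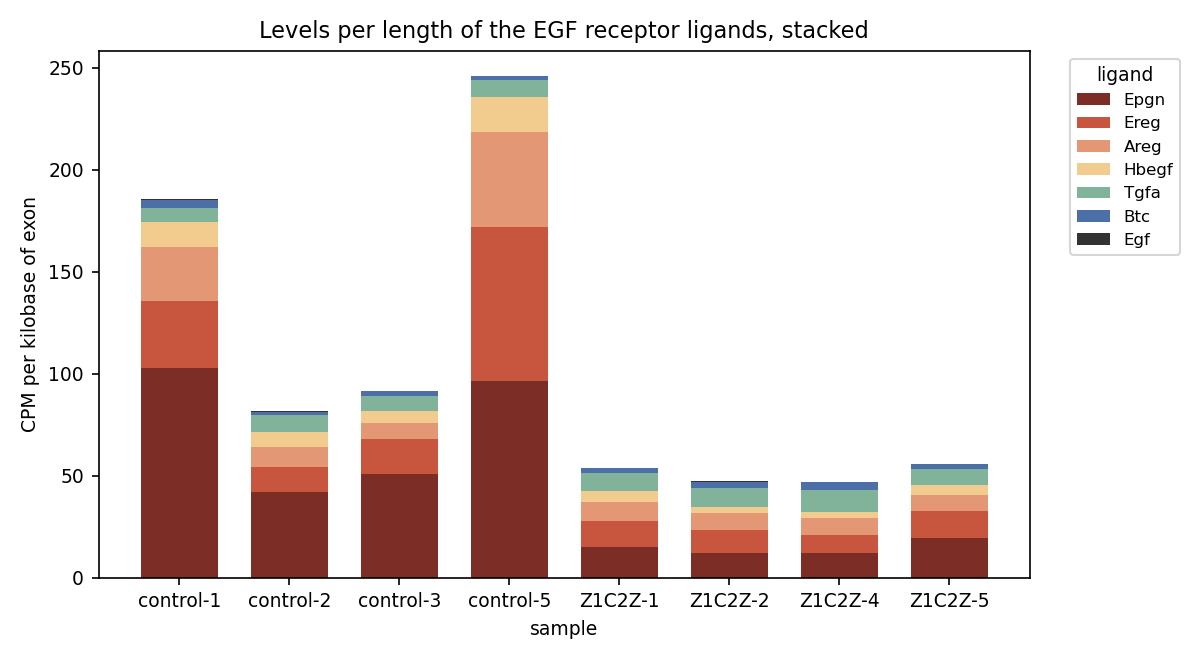
Stacked levels of the 7 EGF receptor ligand genes in CPM per kilobase of exon (vertical axis) in each of the 8 samples. The bars of control-1 and control-5 are the highest at 186 and 246, those of the 4 Z1C2Z samples lie between 46.9 and 55.7, and the Epgn segment at the base is the one that differs most.

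Epgn, Ereg, Areg and Btc follow each other in this order on mouse chromosome 5 with no other protein-coding gene between them, so the largest fall of the family and the ligand gene Btc, with a log2 fold change of 0.11, come from the same cluster. A noncoding gene on the opposite strand overlaps the start of Ereg in GENCODE's annotation, and since the strand setting of the counting is not given in the sources used here, reads of the pair cannot be told apart. The 250 bases before the transcript start were taken from RefSeq (GRCm38.p6), which held an entry for 7 of the 10 members. They are shown for the 3 cluster genes with an entry and for Erbb2, the receptor gene that rose. Capitals mark every match, on either strand, to TATAAA (the TATA box), TGANTCA (AP-1), TGACGTCA (the cyclic AMP response element), GGG and CC with any 5 bases between them (NF-kappa B), TTCNNNGAA (STAT) and GGGCGG (Sp1), where N is any base. The last and the fourth of these patterns can overlap, but no matches overlap in these windows.
Epgn, chr5:91027267-91027516, plus strand: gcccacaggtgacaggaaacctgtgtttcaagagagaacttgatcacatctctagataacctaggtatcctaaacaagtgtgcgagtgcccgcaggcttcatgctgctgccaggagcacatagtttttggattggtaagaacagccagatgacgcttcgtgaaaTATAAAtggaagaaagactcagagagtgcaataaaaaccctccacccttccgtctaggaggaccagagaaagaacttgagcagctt
Areg, chr5:91139349-91139598, plus strand: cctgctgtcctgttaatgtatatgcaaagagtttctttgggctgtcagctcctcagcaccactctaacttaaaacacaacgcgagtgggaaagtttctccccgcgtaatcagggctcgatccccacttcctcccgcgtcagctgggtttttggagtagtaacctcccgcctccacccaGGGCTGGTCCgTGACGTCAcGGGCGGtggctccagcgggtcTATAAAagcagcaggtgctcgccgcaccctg
Btc, chr5:91402995-91403244, minus strand: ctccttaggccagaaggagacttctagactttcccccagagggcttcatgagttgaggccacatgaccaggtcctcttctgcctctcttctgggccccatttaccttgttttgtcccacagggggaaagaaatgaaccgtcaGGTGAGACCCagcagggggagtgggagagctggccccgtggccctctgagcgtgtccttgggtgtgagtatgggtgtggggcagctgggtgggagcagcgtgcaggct
Erbb2, chr11:98412234-98412483, plus strand: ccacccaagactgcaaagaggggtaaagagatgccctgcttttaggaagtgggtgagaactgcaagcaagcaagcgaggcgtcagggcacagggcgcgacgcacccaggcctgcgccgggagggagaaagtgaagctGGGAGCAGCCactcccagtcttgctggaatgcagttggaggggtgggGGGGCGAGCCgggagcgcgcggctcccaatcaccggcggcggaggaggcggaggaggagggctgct
In Areg a TATAAA lay 31 to 26 bases before the start and a TGACGTCA 61 to 54 bases before it, and in Epgn a TATAAA lay 86 to 81 bases before the start. The Btc and Erbb2 windows held no TATAAA. Of all 32851 RefSeq promoter windows of this length, 12.4% held TATAAA and 1.55% held TGACGTCA, whereas 45.8% held the NF-kappa B pattern, so that the matches to it in Areg, Btc and Erbb2 are common letters. TGANTCA (6.75% of windows) and TTCNNNGAA (7.02%) matched none of the 4, and GGGCGG (32.7%) matched Areg. A match describes letters in this window and says nothing of binding.

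The rest of the pathway was described by 6 lists of 67 genes in all, of which 65 passed the low-count filter. Of these 65, 4 were higher and 4 lower in the Z1C2Z group (12.3% called, where 8.13% of all genes were), and 46 had a log2 fold change under 0. Without control-5, and without each of samples 1, 2 and 4 of the Z1C2Z group, 0 of the 65 were called in edgeR, as was the case for all genes tested. The median log2 fold change of the 65 was -0.14, beside 0.01 over all genes tested. The 2 genes not tested were Erbb4, with at most 3 counts in a sample, and Nrg3, with at most 1, so the receptor of Hbegf, Btc and Ereg other than EGFR was hardly detectable at this depth.

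The neuregulins bind ERBB3 or ERBB4 rather than EGFR, and 1 of 3 tested rose while 1 fell, where edgeR called 4.28% of all genes higher and 3.85% lower. Nrg1, which encodes a ligand of both receptors, had 34.9, 28.9, 21.1 and 36.1 CPM in the control samples and 15.2, 9.92, 9.37 and 12.7 CPM in the treated samples. All treated samples were below all control samples, and the log2 fold change was -1.36 (SE 0.21, adjusted p = 0.0299 in edgeR). Nrg2 rose from 1.65 ± 0.749 to 5.40 ± 1.97 CPM (mean ± SD of 4 samples each), that is a log2 fold change of 1.71 (SE 0.36, adjusted p = 0.0324 in edgeR). The counts behind it were few, 35 to 100 in a control sample and 119 to 287 in a treated one. Nrg4 had a log2 fold change of -0.33 (adjusted p = 0.267 in edgeR).

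Of 10 genes for ligand-shedding proteases and their carriers, 1 fell and 9 did not pass the threshold in edgeR, where 3.85% of all genes were called lower. DESeq2 called 5 lower, beside 1539 of all 15147 genes. In edgeR 5 had an unadjusted p under 0.05, beside 28% of all genes. The log2 fold change was under 0 for 8 of the 10, with a median of -0.33. Adam9, a membrane-bound protease gene, was the gene that fell, from 248 ± 29.1 to 165 ± 32.6 CPM (mean ± SD of 4 samples each), that is a log2 fold change of -0.59 (adjusted p = 0.0472 in edgeR). Adam17 and Adam10, the main sheddases of EGF receptor ligands, had log2 fold changes of -0.14 and -0.21 (adjusted p = 0.428 and 0.217 in edgeR), and Adam12 had -0.89 (adjusted p = 0.0729 in edgeR). Of the 13 genes for receptor feedback inhibitors, 0 passed the threshold in edgeR, 6 had an unadjusted p under 0.05 and DESeq2 called 2 lower, beside the same shares of all genes. Errfi1, whose product binds and blocks the EGFR kinase, had 309 ± 150 CPM in the control group and 131 ± 32.2 CPM in the Z1C2Z group (SD, n = 4 each), with a log2 fold change of -1.24 (adjusted p = 0.0540 in edgeR). Spred1 (-0.33, adjusted p = 0.0989 in edgeR) and Cbl (-0.21, adjusted p = 0.494 in edgeR), an inhibitor of the RAS pathway and a ubiquitin ligase of EGFR, were nearer to 0.

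Of 5 genes for MAP kinase phosphatases, 1 passed the threshold in edgeR, where 3.85% of all genes were called lower. Dusp1 fell from 149 ± 67.8 to 46.5 ± 9.72 CPM (mean ± SD of 4 samples each), that is a log2 fold change of -1.68 (SE 0.29, adjusted p = 0.0299 in edgeR). Dusp6, the feedback phosphatase of ERK, had -0.11 (adjusted p = 0.486 in edgeR), and Dusp7 and Dusp5 had -0.33 and -0.06 (adjusted p = 0.114 and 0.899 in edgeR). Among 22 adaptors and kinases 1 gene passed the threshold (4.55%, beside 8.13% of all genes), and the median log2 fold change was 0.00. This gene, Pik3cb, encodes a catalytic subunit of PI3 kinase and rose from 38.2 ± 6.49 to 57.6 ± 5.85 CPM (mean ± SD of 4 samples each), that is a log2 fold change of 0.60 (adjusted p = 0.0378 in edgeR). Nras and Ptpn11, abundant transmitters of the signal, had log2 fold changes of 0.07 each (adjusted p = 0.632 and 0.607 in edgeR).

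The 12 transcription factors and targets induced by ERK had a median log2 fold change of -0.52, with 10 genes under 0. In edgeR 2 of the 12 were called higher and 1 lower, beside 4.28% and 3.85% of all genes. DESeq2 called 2 higher and 5 lower, beside 1206 and 1539 of all 15147 genes, so that the number called lower depended on the tool. An unadjusted p under 0.05 in edgeR was reached by 9 of the 12 and by 28% of all genes. Plaur, which encodes the urokinase receptor of migrating cells, fell from 44.4 ± 22.4 to 11.3 ± 4.18 CPM (mean ± SD of 4 samples each), that is a log2 fold change of -1.97 (SE 0.38, adjusted p = 0.0303 in edgeR). Etv4 and Egr3, a pair of transcription factor genes, rose with log2 fold changes of 0.84 and 0.50 (adjusted p = 0.0452 and 0.0337 in edgeR). Egr1, Jun and Junb, early response genes, had -0.02, -0.08 and -0.57 (adjusted p = 0.969, 0.620 and 0.140 in edgeR). Fosl1, singled out after its values were seen, had 13.7 ± 12.5 CPM in the control group and 2.42 ± 1.52 CPM in the Z1C2Z group (SD, n = 4 each), with a log2 fold change of -2.50 (adjusted p = 0.0508 in edgeR).

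**Figure D4:**
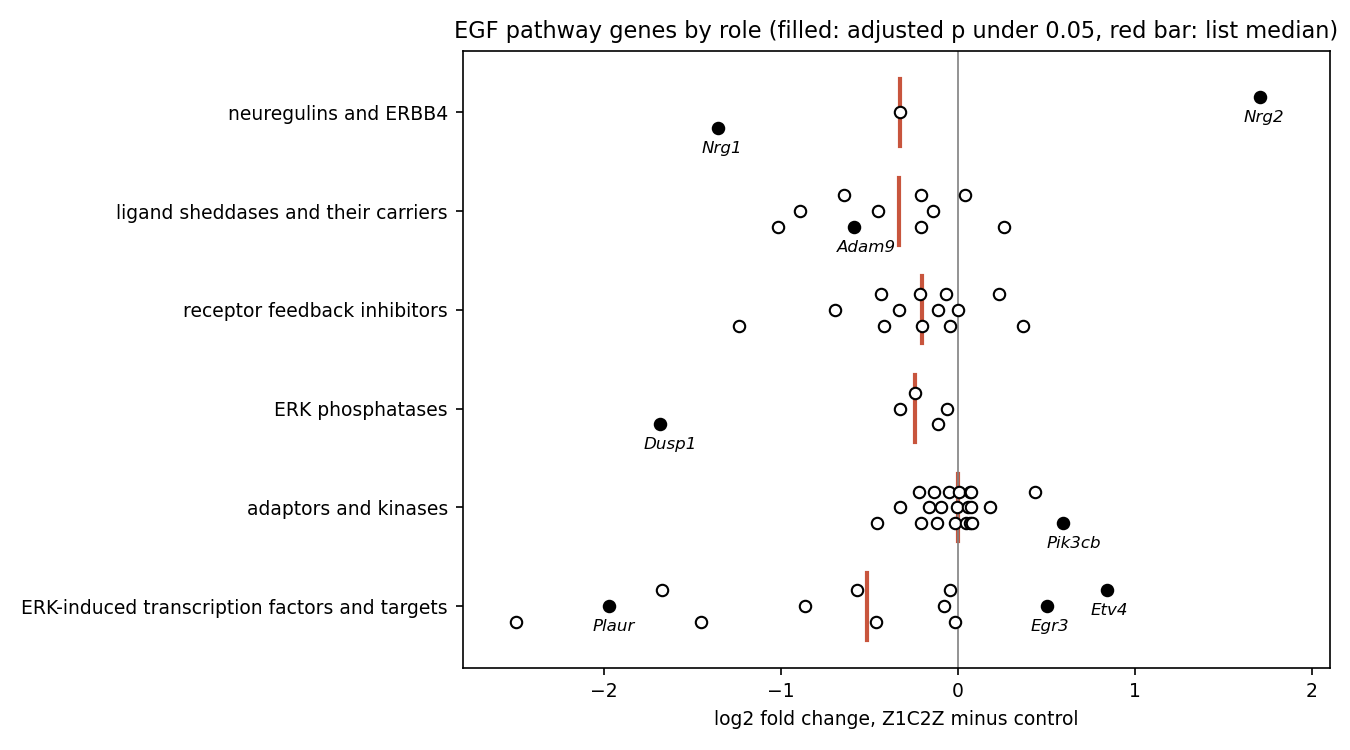
Log2 fold change (horizontal axis, Z1C2Z minus control) of the 65 tested genes of the EGF pathway in 6 lists by role, filled and named where the edgeR adjusted p was under 0.05, with the median of each list as a red bar. The adaptors and kinases lie around 0, and the list of ERK-induced genes spreads from -2.50 to 0.84.

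For each member the genes with the most similar profile over the 8 samples were sought, as the smallest root mean square difference of standardized log2 CPM, in units of SD. For Epgn these were Ugdh (0.083), Vopp1 (0.124) and Nfe2l2 (0.137), each of them lower in the Z1C2Z group at the adjusted threshold, with log2 fold changes of -1.16, -0.39 and -0.48. Ugdh encodes the enzyme that makes a sugar precursor of hyaluronan, and Nfe2l2 encodes NRF2, the regulator of the antioxidant response. The profile of Hbegf was near to those of Gpr35 (0.136) and Inhba (0.140), both lower at the adjusted threshold, of which Inhba encodes a subunit of activin. Areg was near to Mt1 (0.173) and Phlda1 (0.184), and Ereg to Vegfa (0.194), Gipr (0.206) and Tnfsf9 (0.214), genes that did not pass the threshold either. Erbb2 was near to Patj (0.184) and Casz1 (0.203), and Erbb3 to Grhl2 (0.187) and Axin2 (0.203), among them epithelial polarity and transcription factor genes. The nearest genes lay farther from Egf (Ficd, 0.329) than from Egfr (Zfp236, 0.129), Tgfa (Lrrc51, 0.172) or Btc (Csnk2a1, 0.202). These distances are a description, since 8 samples in 2 groups place many genes close to each other.

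**Figure D5:**
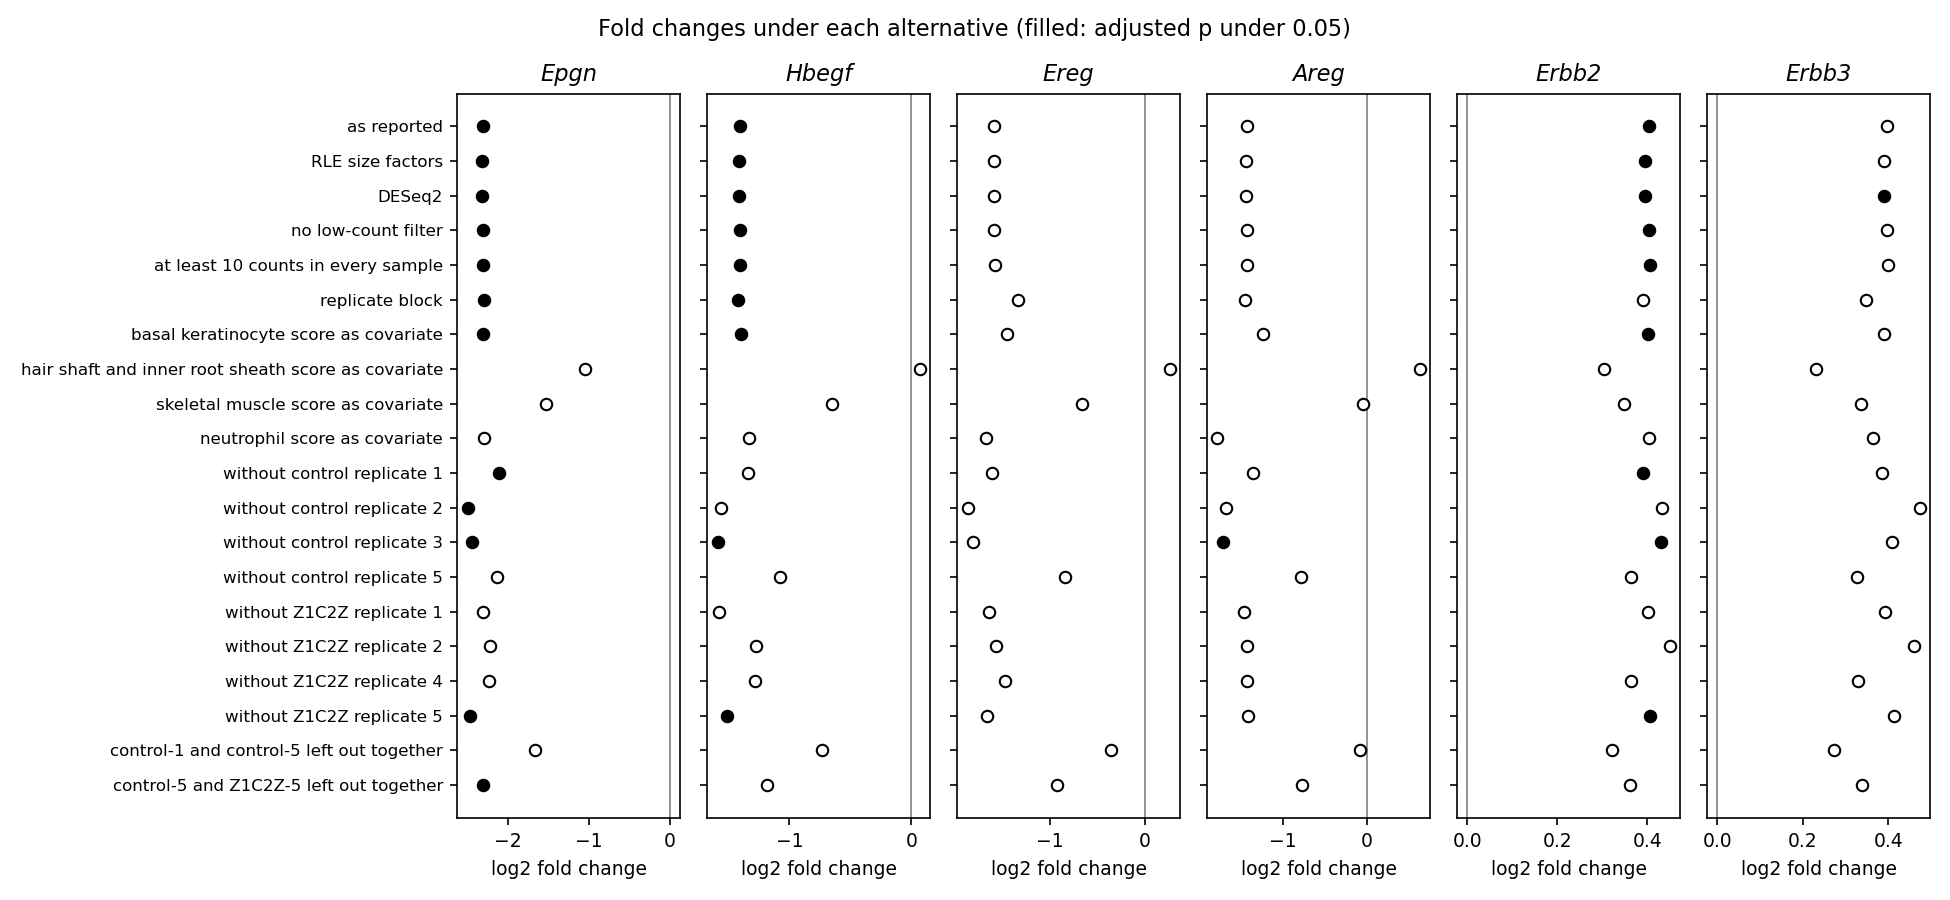
Log2 fold change (horizontal axes, Z1C2Z minus control) of 6 EGF family genes in the reported fit and 19 alternatives (rows), filled where the adjusted p was under 0.05. Epgn stays between -2.50 and -1.05 and Erbb2 between 0.30 and 0.45, whereas Hbegf, Ereg and Areg cross 0 with the hair shaft and inner root sheath score as covariate.

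The hair shaft and inner root sheath score did not overlap between the groups, so the score and the treatment cannot be told apart. With the score as covariate the log2 fold changes were -1.05 for Epgn, 0.07 for Hbegf, 0.26 for Ereg, 0.63 for Areg, 0.30 for Erbb2 and 0.23 for Erbb3, and 1 gene of all those tested was called. The skeletal muscle score did not overlap between the groups either, and with it as covariate the log2 fold changes were -1.53 for Epgn, -0.65 for Hbegf, -0.66 for Ereg, -0.05 for Areg and 0.35 for Erbb2 (adjusted p = 0.110, 0.450, 0.647, 0.9745 and 0.218 in edgeR). With the neutrophil score, which overlapped, they were -2.30 for Epgn, -1.33 for Hbegf, -1.68 for Ereg, -1.78 for Areg and 0.41 for Erbb2, but the adjusted p rose to 0.208, 0.281, 0.324, 0.285 and 0.259 in edgeR. With the basal keratinocyte score as covariate, which also overlapped between the groups, Epgn had -2.31, Hbegf -1.40 and Erbb2 0.40, and all 3 kept an adjusted p under 0.05 (0.0107, 0.0175 and 0.0379 in edgeR).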

How the data were processed

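The deposited table holds raw counts of reads per gene for 8 samples, without normalization by the authors, beside gene annotation. Per the labels, ribosomal RNA was removed and the second cDNA strand carried dUTP. The aligner, counting program, genome build and strand setting are not given in the sources used here. Samples were grouped by their titles, and 0 of its sample columns went unused. The smallest chi-square between samples of a group was 21.7 per degree of freedom (Z1C2Z-2 and Z1C2Z-4), and each library was counted as 1 sample. It was 27.6 for Z1C2Z-1 and Z1C2Z-5 and 35.5 for control-2 and control-3. The other pairs within a group had 73.7 to 138. These values cannot tell whether samples came from 1 mouse, so the number of mice behind each group may be smaller than its number of samples.

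The tests were run with edgeR 4.0.16 under R 4.3.3. Genes were kept by filterByExpr, normalized by TMM and tested on all 8 samples with the quasi-likelihood test and Benjamini-Hochberg adjustment, without covariates. Log2 CPM used a prior count of 2. Standard errors and 95% intervals came from the quasi-likelihood F statistic. The steps were tested on simulated data. The members, lists and tests were chosen with earlier results of these data known. The text names all members, pathway genes with an adjusted p under 0.05, up to 3 further genes per list with the highest expression, and the 3 nearest profiles per member, except for some genes that are not reported here. Alternatives were DESeq2 1.42.0, RLE size factors, other filters, the sample number as a block, 4 marker scores as covariates and samples left out, for the exact test also another prior count and library totals.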

Additional observations from a re-analysis of the deposited data

How the results depend on the processing

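Of the 10 members, 1 was called higher and 2 lower, and the same counts came from RLE size factors, from no low-count filter, from at least 10 counts in every sample and with the basal keratinocyte score as covariate. DESeq2 called 2 higher (Erbb2 and Erbb3) and 2 lower. With the hair shaft and inner root sheath, skeletal muscle or neutrophil score as covariate, 0 members and 0 pathway genes were called in either direction, in fits that called 0 genes higher and 1, 2 and 0 genes lower in all, although 706, 3141 and 2062 genes had an unadjusted p under 0.05. The scores for hair and muscle did not overlap between the groups. In the fits that left out a sample, between 0 and 1 members were called higher and between 0 and 3 lower, between 0 and 4 pathway genes higher and between 0 and 8 lower, and between 0 and 886 of all genes higher and between 0 and 868 lower, with 0 calls of any kind without control-5 and without each of samples 1, 2 and 4 of the Z1C2Z group (3223, 4208, 3137 and 3100 genes had an unadjusted p under 0.05) and with 25 higher and 98 lower without control-2. Of the pathway genes, 4 higher and 4 lower in the report, DESeq2 called 15 lower and the fit with the basal keratinocyte score 10 lower. Of all genes, 648 higher and 583 lower in the report, DESeq2 called 1206 and 1539. Leaving out control-1 and control-5 together, chosen after the data were seen, gave 0 and 0 members, 0 and 0 pathway genes and 4 and 9 of all genes. Leaving out control-5 and Z1C2Z-5 together, also chosen after the data were seen, gave 0 and 1 members, 2 and 5 pathway genes and 486 and 347 of all genes.

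The sample number as a replicate block gave 0 members higher and 2 lower, 1 pathway gene higher and 4 lower, and 301 and 253 of all genes. Erbb2 then had an adjusted p of 0.252 in edgeR. Only the numbers 1, 2 and 5 occur in both groups, so control-3 and Z1C2Z-4 added nothing to the treatment effect in that fit. The correlations of deviations from the group means between samples of the same number came to -0.101 (samples 1), -0.0623 (samples 2) and 0.323 (samples 5), and the numbers were not taken to pair the samples. Whether samples of the same number came from 1 mouse is not stated in the sources used here. Log2 fold changes of the opposite sign were found for Egf (-0.082) and Btc (-0.006) with that block, and with the neutrophil score as covariate for Egf (-0.031), Btc (-0.382) and Egfr (0.045). With the hair shaft and inner root sheath score they were 0.07 for Hbegf, 0.63 for Areg and 0.26 for Ereg. In the fits that left out a sample, Egf lay between -0.142 and 0.112 and Btc between -0.053 and 0.458. In the exact permutation test, another prior count moved no member across the threshold, and library totals in place of TMM moved Erbb3 to p = 0.0286. The causes were not tested. Depth limits Egf most, with 62 to 109 counts per sample.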

Other observations

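The protein-coding genes on either side of the ligand cluster on chromosome 5 were also measured. Cxcl2, a neutrophil chemokine gene, had 112 CPM in the control group and 40.5 CPM in the Z1C2Z group (log2 fold change -1.47, SE 1.09, adjusted p = 0.408 in edgeR). Mthfd2l, which lies between Cxcl2 and Epgn, had -0.16 on that scale (adjusted p = 0.439 in edgeR), and Parm1, beyond Btc, had -0.37 (adjusted p = 0.312 in edgeR). In each of these 3 genes the groups overlapped.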
